A study of Homo sapiens with 6 samples.

Results

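FAM43B, CDA, PINK1 and DDOST are 4 consecutive protein-coding genes on the short arm of chromosome 1, taken by their symbols from a count table of 57773 genes. They were chosen because some of them had lower counts in the mutant, so the difference between genotypes in these 4 genes is described here without a test. The libraries were made from polyA RNA of HAP1, a human line of nearly haploid karyotype that goes back to a chronic myeloid leukaemia. The wild-type group (n = 3 libraries) was HAP1 without an engineered change in CTCF, and the mutant group (n = 3 libraries) was HAP1 carrying the CTCF substitutions Y226A and F228A, made by Cas9 cutting with a repair oligonucleotide, puromycin selection and picking of clones. The repair oligonucleotide also held a silent change. The labels attach this protocol to all 6 libraries and do not say whether wild-type cells went through it. Both residues lie in the N-terminal part of CTCF that binds cohesin. Whether the 3 mutant libraries stem from 1 clone or several, or from separate cultures, is not in the labels. The spread therefore covers only these 6 libraries, and effects of the substitutions and of the edited clone cannot be told apart.

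CTCF binds insulator sites and, with cohesin, anchors chromatin loops, and genes that lie side by side can share the regulatory elements within such a loop. The 4 genes have unrelated products. FAM43B encodes a little-studied protein with a domain of the phosphotyrosine-binding type. CDA encodes cytidine deaminase, which turns cytidine and deoxycytidine into uridine and deoxyuridine and inactivates cytidine analogues used against leukaemia. PINK1 encodes a kinase that accumulates at the TOM complex of damaged mitochondria, where it phosphorylates ubiquitin and so starts mitophagy. DDOST encodes a non-catalytic subunit of the oligosaccharyltransferase, which attaches N-linked sugar chains to proteins in the endoplasmic reticulum.

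On GRCh38, in GENCODE v29, FAM43B (ENSG00000183114.6) lies on chromosome 1 from 20552439 to 20555010 on the plus strand. CDA (ENSG00000158825.5) follows from 20588948 to 20618908 and PINK1 (ENSG00000158828.5) from 20633455 to 20651511, both on the plus strand. DDOST (ENSG00000244038.5) lies on the minus strand from 20651767 to 20661544. The block spans 109 kb, with 33.9 kb between FAM43B and CDA, 14.5 kb between CDA and PINK1 and only 0.255 kb between the ends of PINK1 and DDOST. The counts were made on hg19, so these positions serve for location and order only. PINK1-AS, an antisense RNA on the minus strand, overlaps PINK1 and the end of DDOST. The sources used here do not say whether reads were counted by strand, and without strand the reads of PINK1 and PINK1-AS cannot be told apart.

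Sequence just upstream of CDA and DDOST is shown because CTCF is named for the letters CCCTC, and because CDA was much lower in the mutant and DDOST was not. Each line gives the bases of the RefSeq promoter window (GRCh38.p14) that precede every GENCODE v29 transcript of that gene, 5′ to 3′ on the strand of the gene, with matches to CCCTC or its reverse complement in capitals.
CDA, 101 bases, chr1:20588847-20588947, plus strand: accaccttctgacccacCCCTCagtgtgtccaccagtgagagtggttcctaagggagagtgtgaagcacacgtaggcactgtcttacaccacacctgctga
DDOST, 75 bases, chr1:20661545-20661619, minus strand: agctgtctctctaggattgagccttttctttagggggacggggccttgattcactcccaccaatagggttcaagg

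In the full RefSeq windows (250 bases before to 50 after the start) CDA had 1 match to CCCTC on either strand and DDOST had 0, while 71.2% of 35116 such windows held at least 1. Among the neighbours described below, KIF17 was lower in the mutant and had 0 matches. MUL1, whose groups overlapped, had 2. So few windows, with letters this common, cannot show whether matches go with the differences between genotypes. The matches describe the letters in the windows only. FAM43B, PINK1 and the neighbour CAMK2N1 have no entry in the table of windows.

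FAM43B had 51, 25 and 37 counts in the wild-type libraries and 9, 6 and 5 in the mutant libraries. As TMM-scaled CPM, which is a library's count of a gene relative to its total, its levels were 5.30, 3.18 and 4.66 in wild-type libraries and 1.03, 0.778 and 0.528 in the mutant. Each mutant library lay below each wild-type library, and the groups were 4.38 ± 1.09 and 0.778 ± 0.250 CPM (mean ± SD, n = 3 each). The fitted log2 change was -2.50 with a standard error (SE) of 0.322, or 5.65-fold lower. Of 14835 tested genes, 146 had a lower fitted value. FAM43B passed the filter on low counts through its wild-type libraries, and its mutant value rests on 20 counts in all. In bulk RNA such as this, fewer cells with the transcript and less transcript per cell cannot be told apart.

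CDA followed the same pattern at a smaller ratio. Its wild-type levels were 6.23, 6.23 and 5.29 CPM, from 60, 49 and 42 counts, and its mutant levels 2.40, 2.46 and 1.79 CPM, from 21, 19 and 17 counts. The wild-type libraries again all lay above the mutant ones. The mean went from 5.92 ± 0.543 to 2.22 ± 0.369 CPM (n = 3 each), a log2 change of -1.42 (SE 0.221) or 2.68-fold lower, with 255 tested genes below it.

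For PINK1 the groups were apart by much less. Wild-type levels were 84.1, 75.3 and 76.98 CPM and mutant levels 67.2, 64.9 and 65.3 CPM. The lowest wild-type library stood above the highest mutant library. The means were 78.8 ± 4.69 and 65.8 ± 1.20 CPM (n = 3 each), a log2 change of -0.26 (SE 0.0686) or 1.20-fold lower. At 501 to 810 counts per library this gene was measured far more precisely than FAM43B or CDA.

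DDOST had 279, 260 and 273 CPM in wild-type libraries and 256, 250 and 265 CPM in the mutant, and the 2 groups overlapped. The means were 271 ± 9.86 and 257 ± 7.88 CPM (n = 3 each), a log2 change of -0.07 (SE 0.0505). So 3 of the 4 genes had every mutant library below every wild-type library, a pattern that 16.5% of all tested genes showed. Nothing is read from that comparison, since the genes were chosen from it.

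Within the 4 genes, which were chosen from this contrast, the size of the difference followed their order along the chromosome. From FAM43B through CDA and PINK1 to DDOST, the mutant retained 17.8%, 37.5%, 83.5% and 95.0% of the mean wild-type CPM. The same order holds for expression. Per kilobase of merged exons, the wild-type levels were 1.70 ± 0.422, 6.15 ± 0.564, 16.3 ± 0.970 and 99.4 ± 3.62 CPM per kb (mean ± SD, n = 3), and the lowest library of each gene lay above the highest library of the gene before it. Position along the block and expression level therefore cannot be told apart among these 4 genes. The order by position did not continue outside them. KIF17, 2.47 kb beyond DDOST, had a log2 change of -1.18 and a wild-type mean of 3.82 CPM. PINK1-AS, within the block, had a log2 change of 0.26 and a wild-type mean of 7.37 CPM. The order by expression did not hold for this RNA. Both of these levels are plain CPM, not per kb. Whether position or expression bears on the differences was not tested. The exon lengths come from GENCODE v29, count every annotated isoform and are an approximation for the hg19 counts. In the sum of the 4 genes' CPM, DDOST made up 74.5 to 75.9% in the wild-type libraries and 78.4 to 79.7% in the mutant libraries, and CDA 1.47 to 1.81% and 0.539 to 0.775%.

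Between libraries of 1 genotype, the spread was widest for FAM43B, with a coefficient of variation of 24.8% in wild-type libraries and 32.2% in the mutant. It was 9.17% and 16.6% for CDA, 5.95% and 1.83% for PINK1 and 3.64% and 3.07% for DDOST. Wild-type replicate 1 had the highest level of FAM43B, PINK1 and DDOST among the wild-type libraries. Without that library the log2 changes were -2.33, -0.21 and -0.05.

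The authors' deposited table, made with DESeq2 on the same libraries, lists log2 changes of -2.52 for FAM43B, -1.43 for CDA, -0.27 for PINK1 and -0.08 for DDOST. These values come from the same contrast and are no separate evidence.

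**Figure D1:**
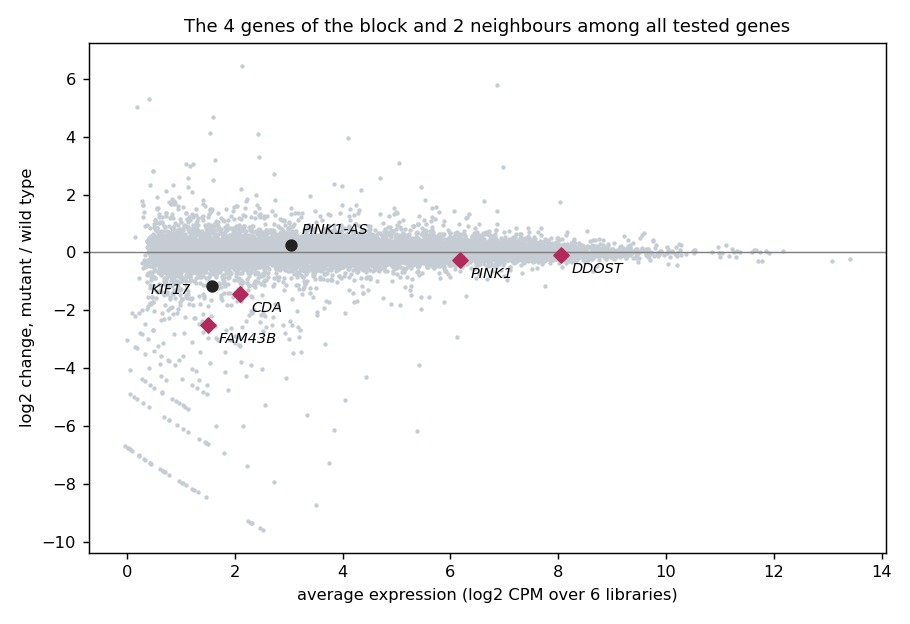
Log2 change of mutant over wild type against average log2 CPM for all 14835 tested genes (grey), with the 4 genes of the block as diamonds and KIF17 and PINK1-AS as black circles. FAM43B (-2.50) and CDA (-1.42) lie at low expression, where fitted changes of all genes scatter more widely than near PINK1 and DDOST.

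Neighbouring genes were then examined with the edgeR quasi-likelihood test on the whole table. A gene was called when its Benjamini-Hochberg adjusted p, taken across the 14835 genes, was under 0.05. By this rule 21.2% of all tested genes were called, 11.9% higher and 9.26% lower in the mutant. Of the 20 nearest protein-coding genes on each side, 14 had 0 counts in all libraries, 4 had too few counts and 22 were tested. Of these 22, 2 rose, 2 fell and 18 were not called. Their median log2 change was 0.03, against -0.00097 for all tested genes. Without wild-type replicate 1 the number called was 2 in place of 4.

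KIF17, a kinesin motor gene that follows DDOST at a distance of 2.47 kb, fell. Its levels were 4.36, 3.56 and 3.53 CPM in wild-type libraries and 1.26, 1.68 and 2.11 CPM in the mutant, so the groups did not overlap. The means of 3.82 ± 0.472 and 1.68 ± 0.427 CPM (n = 3 each) gave a log2 change of -1.18 (SE 0.263, edgeR adjusted p = 0.00240), or 2.26-fold lower, from 98 and 44 counts. The call held in all 11 alternative fits, with adjusted p from 4.79e-04 to 0.0217 and log2 changes from -1.40 to -0.9985. DDOST, between PINK1 and KIF17, thus had overlapping groups while KIF17 beyond it fell.

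PINK1-AS did not follow PINK1. It had 6.02, 9.67 and 6.43 CPM in wild-type libraries and 8.91, 7.26 and 9.82 CPM in the mutant, with overlapping groups and a log2 change of 0.26 (SE 0.184, edgeR adjusted p = 0.363). How many of its reads came from PINK1 or DDOST was not tested.

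On the side of FAM43B, the nearest gene is MUL1, a mitochondrial ubiquitin ligase, 44.3 kb away. It had 35.2 ± 3.37 and 37.2 ± 0.542 CPM (n = 3 each) and was not called (log2 0.07, edgeR adjusted p = 0.619). CAMK2N1, an inhibitor of the kinase CaMKII at 66.2 kb, rose from 11.2 ± 0.898 to 15.6 ± 1.42 CPM (edgeR adjusted p = 0.0113, log2 0.47, SE 0.129). That call was lost without wild-type replicate 1 (edgeR adjusted p = 0.0564) and without mutant replicate 2 (0.0660). Both MUL1 and CAMK2N1 had positive log2 changes in all 11 alternative fits.

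Farther on this side, OTUD3 (-0.31), AKR7A2 (-0.14), PQLC2 (0.02), MINOS1 (0.04), CAPZB (0.13), NBL1 (0.37), TMCO4 (0.40) and HTR6 (0.76) were not called, the values being log2 changes. Calls of 3 of them depended on single settings. HTR6, a serotonin receptor gene, was called without mutant replicate 3 (edgeR adjusted p = 0.0276) and with a replicate block (0.0415), NBL1 without mutant replicate 2 (0.0481), and the deubiquitinase gene OTUD3 without mutant replicate 1 (4.66e-04). OTUD3 was also called with limma-voom and without the filter on low counts. UBXN10 was too low to be tested, with 7 counts in wild-type libraries and 0 in the mutant.

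Beyond KIF17, most of the tested genes were not called. SH2D5 (-0.18), HP1BP3 (-0.0045), EIF4G3 (-0.04), ECE1 (-0.04), NBPF3 (-0.03), RAP1GAP (-0.06), USP48 (0.05), CDC42 (0.05) and ZBTB40 (0.17) were not called, the values again being log2 changes. SH2D5 was called without mutant replicate 1 (edgeR adjusted p = 0.00991). The alkaline phosphatase gene ALPL, 848 kb away, fell from 68.2 ± 7.33 to 58.1 ± 3.43 CPM (log2 -0.23, edgeR adjusted p = 0.0427). That call was lost with DESeq2 (adjusted p = 0.0751) and without wild-type replicate 1 (0.291), mutant replicate 2 (0.128) or mutant replicate 3 (0.114). HSPG2, which encodes the basement membrane proteoglycan perlecan, rose from 78.5 ± 2.79 to 132 ± 7.93 CPM (edgeR adjusted p = 1.19e-08, log2 0.75, SE 0.0637). It lies 1161 kb from the block and was called in all 11 alternative fits.

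**Figure D2:**
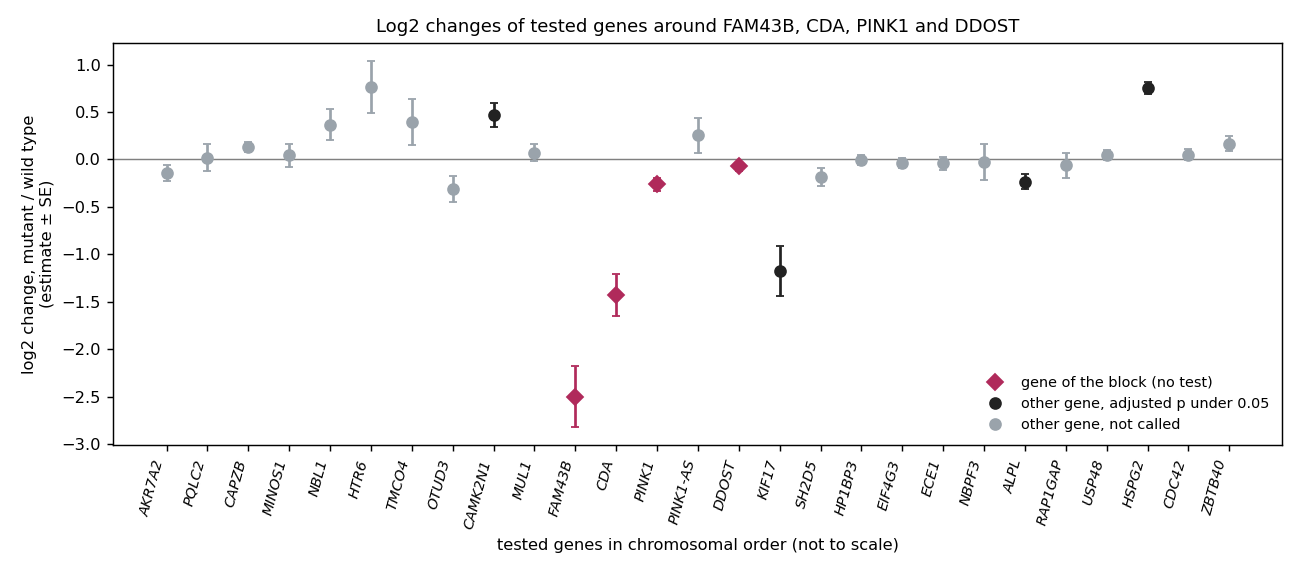
Log2 change (estimate ± SE) of every tested gene around the block, in chromosomal order and not to scale, with untested genes left out. Diamonds are FAM43B, CDA, PINK1 and DDOST, black circles are other genes with an edgeR adjusted p under 0.05 and grey circles are not called. FAM43B, CDA and KIF17 lie below -1, and the genes next to them on the outer sides, MUL1 (0.07) and SH2D5 (-0.18), do not.

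The edited gene and the other checks of the libraries bear on these values as follows. CTCF mRNA was higher in the mutant, at 131, 140 and 135 CPM against 106, 111 and 111 CPM, which does not check the substitutions themselves. FAM43A, the paralogue of FAM43B on another chromosome, had 5.71 ± 0.425 and 6.16 ± 0.957 CPM (n = 3 each) and was not called (edgeR adjusted p = 0.739). CDA is abundant in myeloid cells, and of 12 blood and myeloid markers 7 had 0 counts in every library, among them PTPRC, SPI1, MPO and LYZ. The summed level of the 12 was 0.127 to 0.630 CPM in the wild-type and 0.317 to 0.571 CPM in the mutant libraries. BCR and ABL1, whose fusion marks the leukaemia behind this line, had 23.6 ± 2.86 and 23.9 ± 1.54 CPM in the wild type (n = 3), and counts per gene do not show the fusion. Of 7 tested neural markers 4 fell, namely MAP2 (log2 -2.52), TUBB3 (-1.003), SYT1 (-0.86) and SLC17A7 (-0.86), all named after their values were seen, against 9.26% of all tested genes that fell. TUBB3 passed the filter on low counts only through its wild-type libraries. Nothing is therefore read from its fall or from the count of 4 that includes it. The other 3 tested neural markers, SYP (0.47), MAPT (0.33) and GAD1 (0.59), had positive log2 changes and were not called. MAP2 alone had 13.7, 12.2 and 10.7 CPM in wild-type libraries against 1.26, 2.46 and 2.64 CPM in mutant ones. The summed level over the 11 measured markers was 38.4 to 43.6 CPM in wild-type libraries and 26.7 to 29.8 CPM in the mutant. Of the neural markers too low to be tested, RBFOX3 and ELAVL3 had at most 4 counts per genotype. GRIN1 had 18 wild-type and 2 mutant counts, and SNAP25 had 0 and 8. Of 5 tested epithelial markers 2 rose, EPCAM (log2 1.05) and ESRP1 (1.27), and 1 fell, KRT8 (-0.80). KRT18 (0.18) and OCLN (-0.32) were not called. Of those too low to be tested, CDH1 had 11 wild-type and 1 mutant counts, and CLDN4 had 20 and 10. Both tested mesenchymal markers, COL1A1 and ACTA2, rose. Of all tested genes 11.9% rose and 9.26% fell. Mesenchymal markers too low to be tested had fewer counts in the mutant, with 20 and 5 summed counts per genotype for PDGFRB, 9 and 0 for COL3A1 and 29 and 16 for THY1. The summed epithelial level was 69.7 to 72.5 CPM in wild-type libraries and 69.98 to 80.5 CPM in the mutant, and the mesenchymal one 28.4 to 32.9 and 34.2 to 45.9 CPM. The part of these markers in the lower FAM43B and CDA was not tested.

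Genes that work with PINK1 changed mostly downward where they were called. Of 40 listed genes of mitochondrial import, quality control and mitophagy, 38 were tested, of which 10 fell, 3 rose and 25 were not called. That is 34.2% called, against 21.2% of all tested genes, and the median log2 change was -0.08 against -0.00097. The number called was 8, 7 and 8 in place of 13 without wild-type replicates 1, 2 and 3. Among all genes it was 2465, 2720 and 2420 in place of 3142 in the same fits. How far the share of this list exceeded that of all genes thus depended on single libraries.

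The TOM complex is the import gate of the outer mitochondrial membrane on which PINK1 is held. Of the 7 listed TOMM genes, 6 were tested, of which 5 fell and TOMM5 (log2 -0.62, edgeR adjusted p = 0.0590) was not called, while 9.26% of all tested genes fell. Calls of 4 of these 5 genes were lost in at least 1 alternative fit. TOMM6 is listed at 0 in every library. TOMM70, a receptor of this complex, fell from 208, 213 and 206 CPM to 166, 177 and 172 CPM (edgeR adjusted p = 3.71e-04, log2 -0.28, SE 0.0522) and was called in all 11 alternative fits. TOMM7, which stabilises PINK1 on the complex, fell from 81.1 ± 1.58 to 65.7 ± 10.6 CPM (n = 3 each, log2 -0.31, edgeR adjusted p = 0.0151). Its call was lost without wild-type replicate 1 (edgeR adjusted p = 0.0521), wild-type replicate 3 (0.0556) or mutant replicate 1 (0.0616). The pore gene TOMM40 fell by 0.23 on the log2 scale and was not called without wild-type replicate 1 (edgeR adjusted p = 0.0678). For TOMM22 (-0.20) the call was lost without wild-type replicate 2 (edgeR adjusted p = 0.0538), wild-type replicate 3 (0.119) or mutant replicate 2 (0.141). For TOMM20 (-0.14) it was lost in 6 of 11 alternative fits, with adjusted p up to 0.195. TOMM7 and TOMM20 have processed pseudogenes, so their counts are less certain. TOMM70, TOMM40, TOMM22 and TOMM20 were chosen after their values were seen.

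Of the listed mitophagy receptors that act without PINK1, BNIP3 and BNIP3L fell, and FUNDC1 (log2 0.11), FKBP8 (0.01) and BCL2L13 (-0.13), named with their values in view, were not called. PHB2 (log2 -0.10), named in the same way, was not called either. BNIP3 had 35.3, 38.8 and 25.7 CPM in wild-type libraries and 20.2, 22.3 and 21.2 CPM in the mutant (edgeR adjusted p = 5.16e-04, log2 -0.65, SE 0.122). Its relative BNIP3L fell from 102 ± 12.7 to 74.9 ± 1.72 CPM (n = 3 each, log2 -0.45, edgeR adjusted p = 1.69e-04), and the autophagy kinase gene ULK1 from 62.6 ± 5.21 to 48.3 ± 5.83 CPM (log2 -0.37, edgeR adjusted p = 0.00348). All 3 were called in all 11 alternative fits. In the other direction, VPS13D, a lipid transfer protein of mitochondria, rose by 0.51 on the log2 scale, which was not called without wild-type replicate 1 (edgeR adjusted p = 0.0543) or 2 (0.0515). The protease gene OMA1, which can degrade PINK1, rose by 0.33. It was not called with DESeq2 (adjusted p = 0.0989) nor without any of wild-type replicates 1, 2 and 3 or mutant replicates 2 and 3 (0.0559 to 0.199). The other called genes, picked with their values in view, were the chaperone gene TRAP1 (log2 -0.23, edgeR adjusted p = 0.00116) and the protease gene HTRA2 (-0.27, 0.0269), which fell, and the autophagy adaptor gene SQSTM1 (0.22, 0.0122), which rose. The call of HTRA2 was lost with DESeq2 (adjusted p = 0.0791) and without any of wild-type replicates 1, 2 and 3 or mutant replicates 1 and 2 (0.0511 to 0.0941), and that of SQSTM1 without wild-type replicate 2 (0.0524).

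Of the genes that act on PINK1 or on mitochondrial ubiquitin, PARL and USP30 were not called. PARL, the protease that cleaves PINK1, had a log2 change of -0.05 (edgeR adjusted p = 0.725), and USP30, a deubiquitinase of the outer mitochondrial membrane, 0.02 (0.918).

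In the pathway around CDA, calls were about as frequent as among all genes. Of 40 listed genes of pyrimidine salvage, synthesis and nucleoside transport, 32 were tested, of which 3 rose, 3 fell and 26 were not called. That is 18.8% called against 21.2% of all tested genes, with a median log2 change of 0.00071. The share includes CMPK2, which passed the filter on low counts only through its mutant libraries. The number called was 3 in place of 6 when either wild-type replicate 1 or mutant replicate 2 was left out. The fitted value of CDA lay below that of each of the 32 genes. Nothing is read from that place, since CDA was chosen from this contrast and the listed genes were not.

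The enzymes next to CDA in the pathway were not called. These were UCK2, which phosphorylates uridine and cytidine (log2 -0.04, edgeR adjusted p = 0.640), DCK, which phosphorylates deoxycytidine (0.17, 0.187), and DCTD, which deaminates deoxycytidylate (0.09, 0.404). DCK was called without mutant replicate 1 (edgeR adjusted p = 0.0229). The nucleoside transporter SLC29A1 (-0.09, 0.362) and the phosphorylases UPP1 (0.0048, 0.983) and TYMP (-0.14, 0.816), given in the same order of log2 change and edgeR adjusted p, were also not called.

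CMPK2, a mitochondrial nucleotide kinase induced by interferon, went from 0.312, 0.890 and 1.13 CPM to 2.29, 2.59 and 2.53 CPM (edgeR adjusted p = 0.00170, log2 1.70, SE 0.367). This value rests on 19 wild-type and 64 mutant counts. CMPK2 passed the filter on low counts only through its mutant libraries, and a gene kept in that way had to differ. Nothing is therefore read from its rise. The nucleotidase gene NT5C2 fell from 72.7 ± 0.835 to 55.5 ± 2.27 CPM (log2 -0.39, edgeR adjusted p = 2.48e-04), and RRM2, of ribonucleotide reductase, rose from 278 ± 21.0 to 341 ± 16.9 CPM (log2 0.30, edgeR adjusted p = 5.53e-04; n = 3 each). NT5C2 and RRM2 were called in all 11 alternative fits. CAD, the first enzyme of pyrimidine synthesis, rose by 0.18, a call lost without wild-type replicate 1 (edgeR adjusted p = 0.0514) or mutant replicate 2 (0.0554) and also without wild-type replicate 2. The transporter gene SLC29A2 fell by 0.33, a call lost without wild-type replicates 1 or 3 or mutant replicates 2 or 3 (edgeR adjusted p 0.0574 to 0.0786). DHODH fell by 0.27, a call lost in 7 of 11 alternative fits (adjusted p up to 0.176).

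Genes that work with DDOST were rarely called. Of 41 listed genes of the oligosaccharyltransferase and the N-glycosylation pathway, all were tested, of which 2 rose, 2 fell and 37 were not called. That is 9.76% called against 21.2% of all tested genes, with a median log2 change of -0.04. The number called was 1 in place of 4 without wild-type replicate 1, mutant replicate 2 or mutant replicate 3 and with DESeq2, and 2 with upper-quartile scaling.

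Within the oligosaccharyltransferase, 2 of the 11 other subunits rose and 9 were not called. The catalytic subunit genes took opposite signs, with STT3A at -0.09 (edgeR adjusted p = 0.227) and STT3B at 0.15 (edgeR adjusted p = 0.0400) on the log2 scale. The call of STT3B was lost in 7 of 11 alternative fits (adjusted p up to 0.223) and that of TUSC3 (0.21), a subunit that works with STT3B, in 8 of 11 (up to 0.227). RPN1 (-0.04), RPN2 (-0.10) and DAD1 (-0.15) were not called. DAD1 was called without wild-type replicate 3 (edgeR adjusted p = 0.0492). ALG14, a non-catalytic part of the enzyme that adds the second sugar of the lipid-linked precursor, fell from 11.6 ± 1.42 to 7.42 ± 0.289 CPM (n = 3 each, log2 -0.63, SE 0.149, edgeR adjusted p = 0.00369). It was called in all 11 alternative fits. ALG13, the catalytic part, named with its values in view, was not called (log2 0.16, edgeR adjusted p = 0.101). ALG8 fell by 0.24 on the log2 scale and was not called in 6 of 11 fits (adjusted p up to 0.164).

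**Figure D3:**
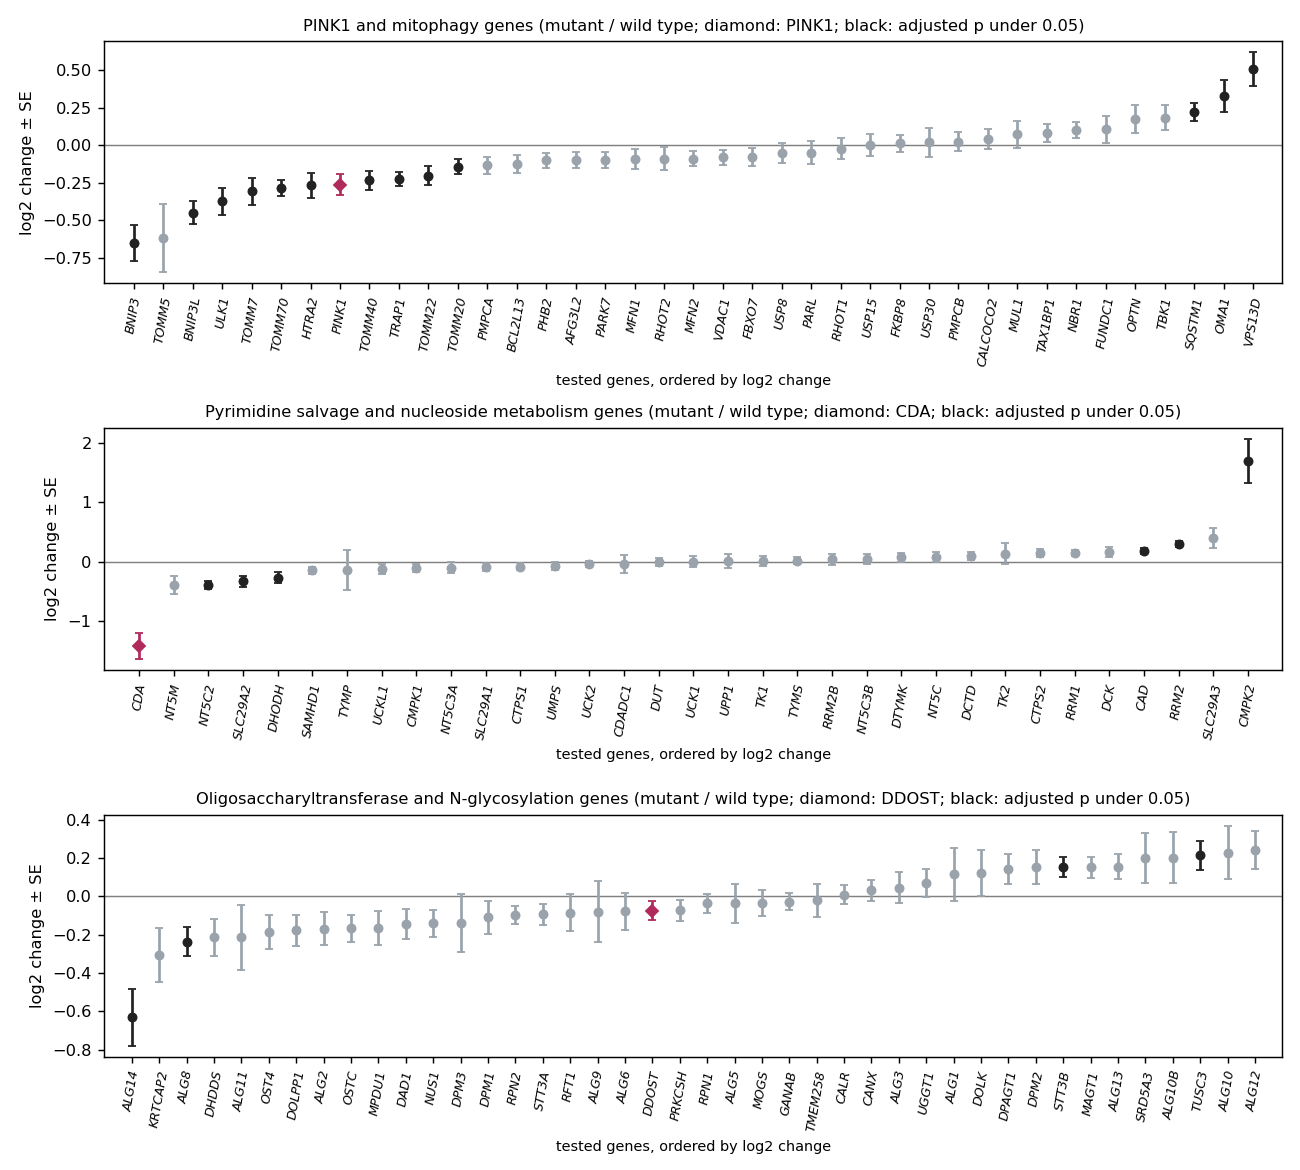
Log2 change (estimate ± SE) of tested genes from the 3 lists, ordered by value within each panel, with the gene of the block as a diamond, genes with an edgeR adjusted p under 0.05 in black and others in grey. PINK1 (-0.26) lies among the lower genes of its list, CDA (-1.42) lies below every other gene of its list, and DDOST (-0.07) lies in the middle of its list. The genes shown as diamonds were chosen from this contrast, so nothing is read from their places.

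Genes with the most similar pattern were taken as those with the highest Pearson r of log2 CPM over the 6 libraries, among 12220 genes whose mean log2 CPM was 2 or more. For FAM43B these were TRIML2 (0.997), NGEF (0.996) and SLC17A9 (0.995), and for CDA they were DDHD2 (0.999), ANAPC5 (0.9985) and SMARCD1 (0.997). For PINK1 they were the pseudogene SRRM1P3 (0.992), the antisense RNA ZNF213-AS1 (0.991) and WDR18 (0.990), and for DDOST they were GRWD1 (0.988) and RTN4RL1 (0.984). None of these genes lies on chromosome 1. With 3 libraries per genotype, such an r mostly records the difference between genotypes, and 641, 623, 519 and 119 genes had an r above 0.9 with FAM43B, CDA, PINK1 and DDOST. The log2 changes of the 3 genes most like FAM43B were -1.30, -0.64 and -0.69, all smaller in size than its own.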

How the data were processed

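PolyA RNA was measured in 3 wild-type and 3 mutant HAP1 libraries, grouped by the titles in the labels. The authors deposited a table of unscaled counts for each gene. Per the submitters' processing notes, TopHat2 2.1.1, HTSeq, DESeq2 and build hg19 were used, with roles and strand setting not given in the sources used here. A DESeq2 table was also deposited by the authors, with a mean signal, a log2 fold change and its standard error, the Wald score, the p-value (raw and adjusted) and another mark. Only its log2 changes are quoted. All 6 count columns were used and 0 were left out. Reads without a gene (no feature 9.05 to 10.5%, ambiguous 1.70 to 1.79%, not unique 11.5 to 12.6% of all counted reads) were set aside.

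Libraries held 7764009 to 9610028 gene counts, so 3 counts equal 0.312 to 0.389 CPM. Such a floor covers counting error alone, as no molecular identifiers are named in the labels. In R 4.3.3, edgeR 4.0.16 (filterByExpr, TMM, robust quasi-likelihood fit with genotype as the only term, default prior count) tested 14835 genes, with a biological coefficient of variation of 0.0545. SE came from the test statistic. The procedure was tested on simulated data, with changes placed only in genes with more counts than FAM43B, KIF17 or CMPK2. That test does not cover changes at such low counts. Alternatives were DESeq2 1.42.0, limma-voom (limma 3.58.1), upper-quartile scaling, no filter beyond 1 count, a replicate block, leaving out each library and, for the 4 genes, a prior count of 2.

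Gene symbols came from the authors' table or by Ensembl identifier (39961 genes), positions and exon lengths from GENCODE v29 (52338 genes), and promoter windows from RefSeq. The 4 genes and the lists were chosen with earlier results of these data known. Named genes were CTCF, the 4 genes, all tested neighbours, FAM43A, up to 6 called genes of each list with the largest absolute log2 change, fixed partners, and the 3 genes most like each of the 4. Genes with near-identical copies, such as processed pseudogenes, may share reads with them. Some items of these lists are not reported here.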

Additional observations from a re-analysis of the deposited data

How the results depend on the processing

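The log2 changes of FAM43B, CDA, PINK1 and DDOST kept their sign in all 12 alternatives, from -2.76 to -2.21, -1.51 to -1.29, -0.29 to -0.21 and -0.10 to -0.05. The count of all called genes was 3142, and 2289 with DESeq2, 3574 with the replicate block and 2420 to 3465 without single libraries. Called neighbours numbered 2 to 6 without single libraries against 4. Called mitophagy genes numbered 7 to 12 against 13, pyrimidine genes 3 to 9 against 6 and N-glycosylation genes 1 to 5 against 4. The last was 1 with DESeq2 and 2 with upper-quartile scaling. The cause was not tested. Same-numbered libraries did not deviate together (r of 0.0763, 0.0898 and -0.116 across genes, which are not independent replicates), and not every library correlated best with its own number, so the replicate block is an alternative only. With it, 5 neighbours, 13 mitophagy, 7 pyrimidine and 6 N-glycosylation genes were called. Among uncalled genes near 0, the log2 change took the opposite sign for PQLC2 (-0.00076), UPP1 (-0.014) with upper-quartile scaling, UPP1 with DESeq2 (-0.0040) and NBPF3 with limma-voom (0.0090). Without single libraries it ran from -0.11 to 0.11 for PQLC2, -0.082 to 0.17 for MINOS1, -0.040 to 0.035 for HP1BP3, -0.067 to 0.0052 for EIF4G3, -0.17 to 0.29 for NBPF3, -0.024 to 0.068 for USP30, -0.030 to 0.041 for UPP1, -0.34 to 0.13 for TYMP and -0.012 to 0.22 for FAM43A. Depth limits FAM43B most, with 5 to 9 counts per mutant library.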
